A study of Mus musculus with 24 samples.

Results

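The transcripts described here are the RNAs encoded by the mouse mitochondrial chromosome, in astrocytes and microglia purified from the brain. All 37 genes whose symbol begins with mt- were taken, after Ensembl identifiers were matched to mouse symbols, a rule that uses no measured value. They comprise 2 ribosomal RNA (rRNA) genes, 13 protein-coding (mRNA) genes and 22 transfer RNA (tRNA) genes. They stand among 56783 identifiers found in the count tables of either cell type, and all 37 were listed in both tables. The question the series poses is what loss of Serpine2, which encodes a secreted serine protease inhibitor, does to glial gene expression with and without an immune stimulus.

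The 24 libraries fell into 8 groups of 3. Astrocytes came from the cortex of adult Serpine2-/- mice (KO) given lipopolysaccharide (LPS, a component of bacterial outer membranes), controls given LPS, KO mice given saline and controls given saline, and microglia came from whole brains of the same 4 kinds of mice. Controls were littermates with 1 or 2 working Serpine2 alleles, so a control may carry a single working copy, and both sexes were used. The LPS dose, the time between injection and harvest, the mice's age beyond adult and the design of the Serpine2 allele are not given in the sources used here. The astrocytes were freed with papain, microglia by douncing and Percoll, and both were bound to antibody-coated dishes before total RNA was taken. The labels do not say that each library is a separate animal, so p-values below measure the spread between these libraries.

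Mitochondrial DNA is transcribed from both strands into long precursor RNAs that run through many genes. The tRNAs lie between the rRNAs and mRNAs, and cutting at the tRNAs frees the RNAs on either side. The rRNAs build the mitochondrial ribosome, and the mRNAs encode membrane subunits at the core of respiratory complexes I, III and IV and of the ATP synthase. Astrocytes and microglia both respire, and both are known for glycolytic metabolism, which rises in microglia after LPS.

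Many stretches of the mitochondrial chromosome also exist as copies in nuclear DNA. A short read from a stretch copied without a difference has more than 1 possible place of origin. The sequences that follow show an exact copy for an mRNA with almost no counts and a copy with differing bases for an mRNA with many. They are taken from GENCODE M21 transcripts on GRCm38 and written 5′ to 3′ on the strand of the gene. The first pair is a 90-base stretch of mt-Co3, a subunit of complex IV (chrM:8607-8696, plus strand), and the same stretch in its nuclear copy, the pseudogene Gm28437 (chr1:24613882-24613971, minus strand), which differ at 0 of 90 bases. The second pair is a 90-base stretch of mt-Cytb, the cytochrome b of complex III (chrM:14146-14235, plus strand), and its nearest annotated copy, the pseudogene Gm11410 (chr4:80003990-80004079, plus strand), which differ at 5 bases, in capitals. The last is mt-Tp, the proline tRNA gene (chrM:15356-15422, minus strand), the tRNA with the most reads.
mt-Co3: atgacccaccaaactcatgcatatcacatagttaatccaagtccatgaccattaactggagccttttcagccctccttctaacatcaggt
Gm28437: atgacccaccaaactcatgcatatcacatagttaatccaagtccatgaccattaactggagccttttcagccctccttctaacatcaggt
mt-Cytb: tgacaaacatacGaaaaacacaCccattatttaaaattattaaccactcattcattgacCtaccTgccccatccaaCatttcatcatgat
Gm11410: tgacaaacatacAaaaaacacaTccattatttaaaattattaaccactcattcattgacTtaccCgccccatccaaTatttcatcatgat
mt-Tp: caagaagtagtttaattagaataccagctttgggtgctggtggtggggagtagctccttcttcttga

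Astrocyte libraries held 10944765 to 25135252 gene counts each and microglia libraries 4506142 to 13621776. Reads outside annotated genes took 15.9% to 21.1% of all reads in astrocytes and 56.2% to 72.7% in microglia, and reads that aligned to several places took 16.1% to 24.03% in astrocytes and 5.58% to 13.001% in microglia. A nuclear rRNA-like gene, CT010467.1, took 11.9% to 23.998% of astrocyte gene counts and has no row in the microglia tables. Summed counts of 8 astrocyte markers were 32162 to 42591 CPM (counts scaled to an equal total per library) in astrocytes given LPS and 33351 to 38605 CPM in astrocytes given saline, with mitochondrial rRNA and CT010467.1 left out of the total. In microglia, 8 microglia markers summed to 1916 to 4025 CPM after LPS and 2375 to 5510 after saline, below 8 neuron markers at 6661 to 7642 and 6018 to 9841 in the same order of injections. In astrocytes, 6 oligodendrocyte markers summed to 4161 to 10389 CPM after LPS and 4977 to 9105 after saline. Serpine2 was 12.9 to 23.9 CPM of all gene counts in the 6 KO astrocyte libraries, against 66.4 to 172 in their controls, and 16.7 to 21.7 in KO microglia, against 48.8 to 87.4 in their controls. The Xist and Ddx3y counts matched the labelled sex in 23 of 24 libraries, and microglia LPS control 1, labelled female, had 73 Xist and 251 Ddx3y counts, a male pattern.

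The mitochondrial reads of these libraries came almost wholly from the 2 rRNAs and 7 of the 13 mRNAs. Scaled by gene length, the small rRNA mt-Rnr1 averaged 174634 ± 20677 CPM per kb of gene in astrocytes and 9297 ± 4525 in microglia (SD, n = 12 each). The large rRNA mt-Rnr2 averaged 119854 ± 19649 in astrocytes and 16106 ± 4920 in microglia, so that the order of the 2 rRNAs differs between the cell types, with overlapping ranges in microglia. Among these 7 mRNAs, the most abundant in both cell types was mt-Co1, the catalytic subunit of complex IV. It averaged 9311 ± 1573 in astrocytes and 724 ± 263 in microglia. The order below it began with mt-Cytb and mt-Nd1, a complex I subunit, in astrocytes (3274 ± 463 and 2032 ± 464, whose ranges overlap), and with the same genes the other way round in microglia (mt-Nd1 277 ± 113 and mt-Cytb 227 ± 107, whose ranges overlap). Compared within a library, mt-Cytb stood above mt-Nd1 in every astrocyte library, and mt-Rnr2 above mt-Rnr1 in every microglia library.

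The other counted complex I mRNAs followed. In astrocytes mt-Nd5 averaged 1606 ± 229, mt-Nd4 1194 ± 140, mt-Nd2 1050 ± 220 and mt-Nd6 939 ± 181 CPM per kb, and each range overlaps the next. In microglia mt-Nd5 averaged 81.5 ± 45.0, mt-Nd4 78.0 ± 38.2, mt-Nd2 44.7 ± 30.1 and mt-Nd6 22.3 ± 15.2, each overlapping its neighbour. Compared within a library, mt-Nd4 stood above mt-Nd2 and mt-Nd2 above mt-Nd6 in every microglia library. mt-Nd5 stood above mt-Nd4 in every astrocyte library, and the other neighbours changed order between libraries. mt-Nd6 lies on the opposite strand from the other 12 mRNAs, and no strand setting is stated, so its reads cannot be told apart from antisense reads of the long precursor.

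The remaining 6 mRNAs, which lie next to each other on the chromosome (mt-Co2, mt-Atp8, mt-Atp6, mt-Co3, mt-Nd3 and mt-Nd4l), had 75 counts in all 12 astrocyte libraries together and 1 count in all 12 microglia libraries. They encode subunits of complex IV, the ATP synthase and complex I. The largest count of any of them in a library was 10. These 75 counts were 0.00125% of the astrocytes' mitochondrial mRNA counts, although reads from the neighbours mt-Co1 and mt-Nd4 were plentiful. A count of 0 allows up to 3 counts, or 0.119 to 0.274 CPM in an astrocyte library and 0.220 to 0.666 CPM in a microglia library, which covers counting error only.

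Apart from mt-Atp8, these are the genes with a near-perfect nuclear copy on chromosome 1. Cut into every possible stretch of 50 bases, mt-Co2 shared 100% of its stretches exactly with an annotated nuclear transcript, mt-Co3 99.9%, mt-Atp6 99.5%, mt-Nd4l 98.8% and mt-Nd3 98.0%. The copies are the pseudogenes Gm28661, Gm28437, Gm10925, Gm10222 and Gm28438, and they span chr1:24612407-24615565 on the minus strand of GRCm38. mt-Atp8 shared 0% with any annotated nuclear transcript, and none of the copies found covers the stretch of chromosome 1 between Gm28661 and Gm10925, where a copy of it would lie. These 5 copies themselves had few counts, at most 140 in an astrocyte library, for Gm28661, and at most 13 in a microglia library. HTSeq puts reads with several equal alignments in a row of their own and not with any gene. Whether these 5 mRNAs were transcribed at the level of their neighbours cannot be read from these tables. mt-Atp8, at 0 counts in every library, has 155 stretches of 50 bases, none of them found in an annotated nuclear transcript, and what kept its reads out was not tested.

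The genes at the edges of that gap shared part of their sequence. mt-Nd4 shared 62.2% of its 50-base stretches with a nuclear transcript and mt-Co1 51.1%, against 8.19% for mt-Nd2, 7.61% for mt-Nd5, 1.04% for mt-Rnr2 and 0% for mt-Nd1, mt-Nd6, mt-Cytb and mt-Rnr1. mt-Co1 had 731 unshared stretches of 50 bases and mt-Nd4 502, and where the reads of these genes lie cannot be seen in counts per gene. The read length is not given in the sources used here, and shares at 36 and 75 bases were computed as well.

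**Figure D1:**
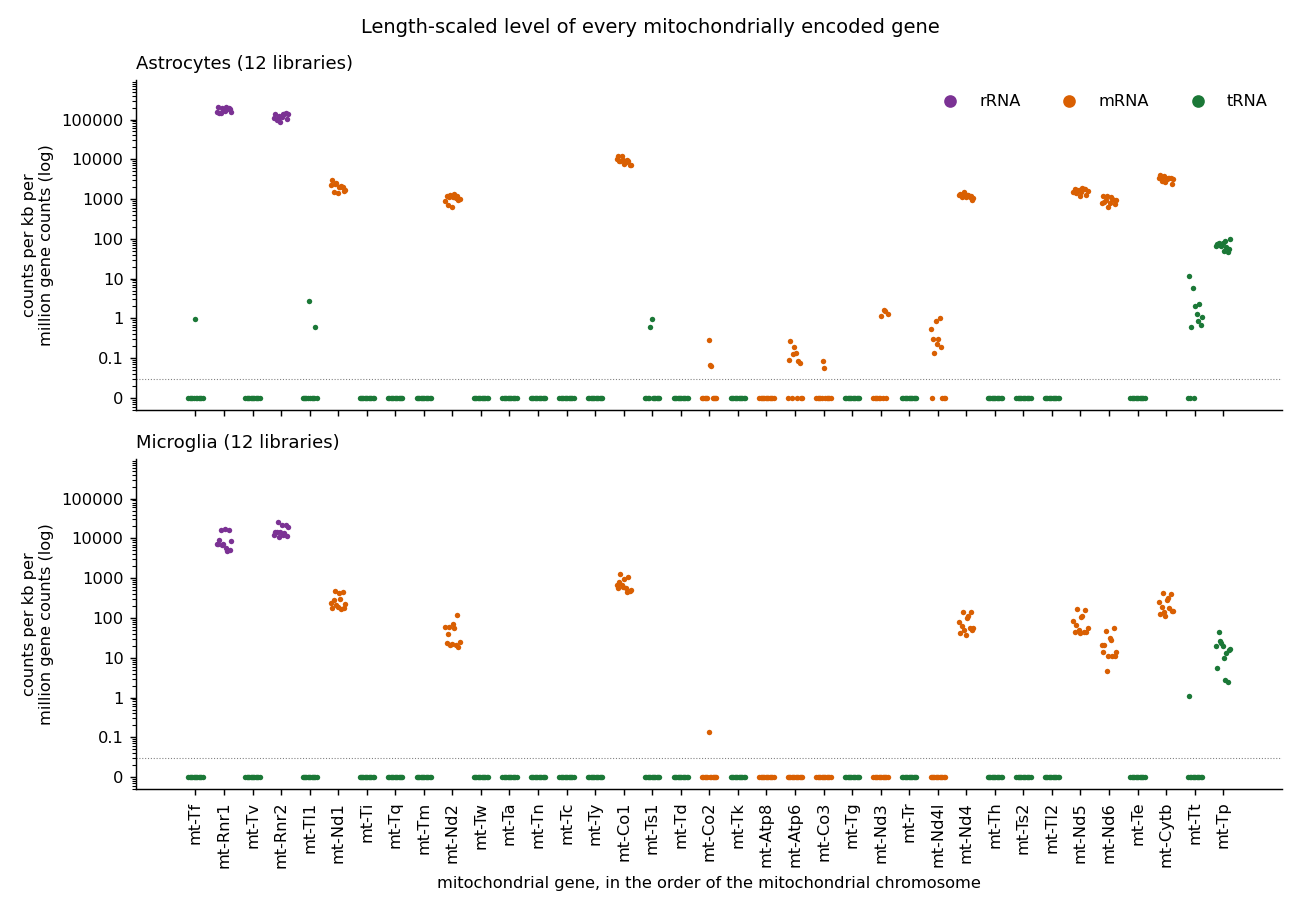
Level in CPM per kb of gene (log axis, with libraries at 0 drawn below the dotted line) for the 37 mitochondrial genes in chromosome order, with 1 point per library, 12 astrocyte libraries above and 12 microglia libraries below, coloured by RNA class. The 6 mRNAs from mt-Co2 to mt-Nd4l lie at or near 0 between mt-Co1 and mt-Nd4, and mt-Tp is the only tRNA above 0 in every library.

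tRNA genes had almost no reads. In astrocytes 17 of 22 and in microglia 20 of 22 were at 0 in every library. mt-Tp had 56 to 136 counts in each astrocyte library and 1 to 28 in each microglia library, and the threonine tRNA mt-Tt had at most 13 and at most 1. The leucine tRNA mt-Tl1 came next in astrocytes, with 4 counts in 12 libraries. mt-Tp lies on the strand opposite to most genes, so its reads too cannot be told apart from antisense precursor. Mature tRNAs are short and heavily modified, and how far such RNAs enter these libraries was not tested.

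Mitochondrial rRNA took 30.02%, 38.6% and 30.04% of gene counts in KO astrocytes given LPS (libraries 1, 2 and 3, as below), and 32.5%, 41.7% and 29.9% in control astrocytes given LPS. It took 41.0%, 33.1% and 36.1% in KO astrocytes given saline and 34.3%, 41.5% and 39.0% in control astrocytes given saline. All 4 astrocyte groups overlap, and library 2 is the highest of both LPS groups. In microglia the shares were 5.65%, 2.36% and 2.95% in KO mice given LPS, 2.65%, 2.94% and 3.26% in controls given LPS, 5.06%, 2.33% and 3.84% in KO mice given saline, and 5.06%, 2.46% and 2.66% in controls given saline. Library 1 stands highest in 3 of these 4 groups, and all 4 overlap.

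Mitochondrial mRNA took 2.64%, 3.27% and 2.42% of gene counts in KO astrocytes given LPS, 2.78%, 3.29% and 2.43% in controls given LPS, 2.65%, 2.06% and 2.23% in KO astrocytes given saline, and 2.36%, 2.67% and 2.67% in controls given saline. Library 2 is again the highest in both LPS groups, and those 2 libraries also had the fewest reads outside genes, 16.3% in the KO library and 15.9% in the control. In microglia it took 0.352%, 0.160% and 0.137% in KO mice given LPS, 0.191%, 0.138% and 0.197% in controls given LPS, 0.323%, 0.127% and 0.140% in KO mice given saline, and 0.264%, 0.194% and 0.126% in controls given saline. The groups overlap in both cell types.

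**Figure D2:**
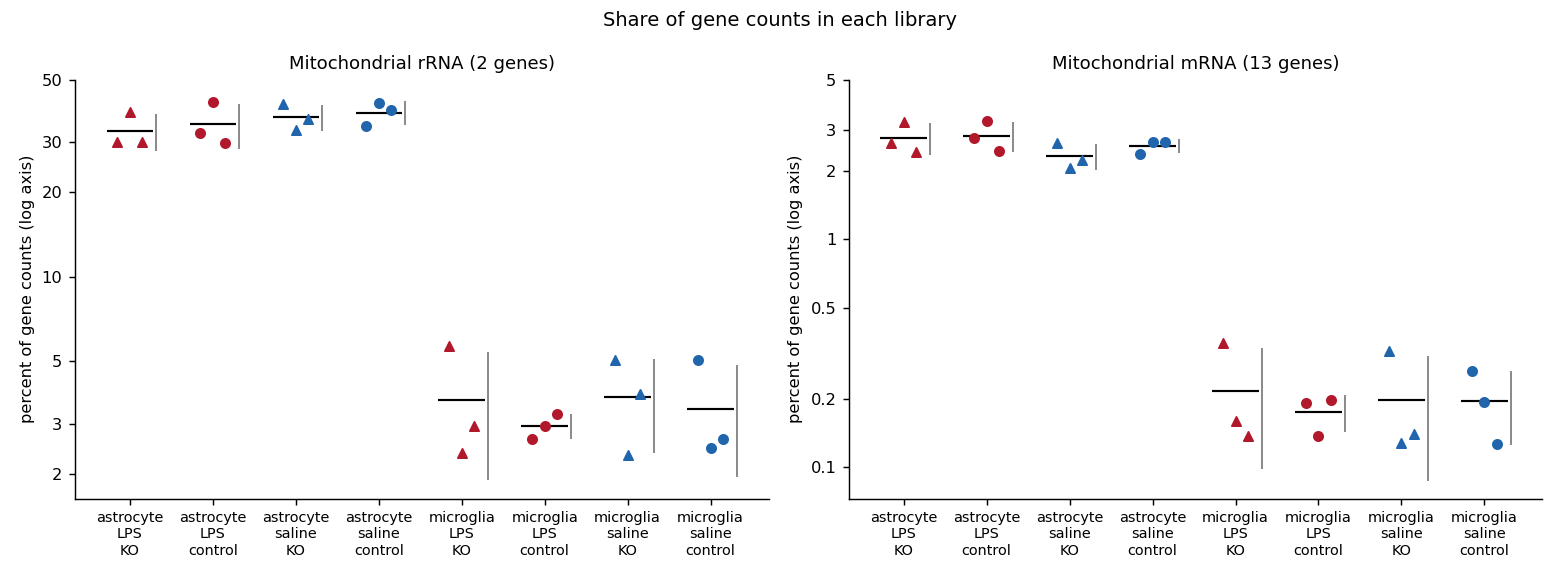
Percent of gene counts taken by mitochondrial rRNA (left) and mRNA (right) on log axes, with 1 symbol per library, triangles for KO and circles for control, red for LPS and blue for saline, black lines for group means and grey lines for 1 SD either side (n = 3). Astrocyte libraries lie at 29.9% to 41.7% rRNA and 2.06% to 3.29% mRNA, above all microglia libraries at 2.33% to 5.65% and 0.126% to 0.352%.

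Loss of Serpine2 was not followed by a detectable change in the mitochondrial share of either cell type. The rRNA share averaged 34.8% ± 4.53 in KO astrocytes and 36.5% ± 4.97 in control astrocytes (SD, n = 6 each), a difference of -1.65 percentage points (exact two-sided permutation test within injections, p = 0.515, adjusted p = 0.78 over 20 tests). In microglia it averaged 3.70% ± 1.41 in KO mice and 3.17% ± 0.965 in controls (p = 0.505 by the same exact permutation test, adjusted p = 0.78). The mRNA share differed by -0.152 percentage points in astrocytes (exact permutation p = 0.42) and by 0.0217 in microglia (exact permutation p = 0.68). The smallest p this test of 6 against 6 libraries can give is 0.005.

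LPS likewise gave no detectable difference in the shares after adjustment. The rRNA share averaged 33.8% ± 5.12 in astrocytes given LPS and 37.5% ± 3.50 in those given saline (exact permutation p = 0.185, adjusted p = 0.463), and the mRNA share 2.81% ± 0.392 and 2.44% ± 0.263 (exact permutation p = 0.105, adjusted p = 0.3). In microglia the rRNA share averaged 3.30% ± 1.19 after LPS and 3.57% ± 1.27 after saline (exact permutation p = 0.73), and the mRNA share 0.196% ± 0.0804 and 0.196% ± 0.0818 (exact permutation p = 1). tRNA counts were 14, 7 and 14 in KO microglia given LPS, 18, 6 and 28 in controls given LPS, 1, 11 and 9 in KO microglia given saline and 4, 1 and 12 in controls given saline. The tRNA share of microglia had an exact permutation p of 0.025, with groups that overlap, and did not pass after adjustment (adjusted p = 0.0833).

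Within the mitochondrial transcripts, the balance of rRNA to mRNA differed with LPS in astrocytes. The mRNA total of this ratio too rests on the 7 counted mRNAs. Counts of rRNA per count of mRNA were 11.3, 11.8 and 12.4 in KO astrocytes given LPS and 11.7, 12.7 and 12.3 in controls given LPS. They were 15.5, 16.1 and 16.2 in KO astrocytes given saline and 14.5, 15.5 and 14.6 in controls given saline. All 6 libraries of astrocytes given LPS lay below all 6 given saline, in each genotype. The ratio fell to 12.0 ± 0.512 in astrocytes given LPS, against 15.4 ± 0.706 in those given saline (SD, n = 6 each), a log2 difference of -0.36. An exact two-sided permutation test gave p = 0.005, the smallest it allows, and an adjusted p of 0.02 over 20 tests. The log2 difference was -0.43 in KO mice and -0.29 in controls, each with an exact permutation p of 0.1, the smallest 3 against 3 libraries allow, and whether the genotypes differ was not tested.

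The difference was smaller when the mRNAs that share most sequence with nuclear copies were left out. Without mt-Co1 the log2 difference was -0.20 (exact permutation p = 0.02). Without mt-Co1 and mt-Nd4 it was -0.18 (exact permutation p = 0.055), which is above 0.05 even unadjusted. With mt-Rnr1 alone as the rRNA it was -0.28 (exact permutation p = 0.01) and with mt-Rnr2 alone -0.42 (exact permutation p = 0.005). All 4 of these variations were added once the values were known, and their p were not adjusted. Among the 20 adjusted tests an exact permutation p of 0.025, for the tRNA share of microglia, did not pass (adjusted p = 0.0833). Leaving out each astrocyte library in turn gave -0.37 to -0.34, each with an exact permutation p of 0.005.

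Other measures moved with LPS in the same astrocyte libraries. Marker sums are again on the total without mitochondrial rRNA and CT010467.1. Summed endothelial markers were 22.5 to 92.0 CPM after LPS and 4.22 to 18.2 after saline (5 of 5 genes detected), and neutrophil markers 0.884 to 35.9 and 0 to 0.327, with Camp and Ltf at 0 in all 12 libraries. Microglia markers were 216 to 1027 after LPS and 195 to 322 after saline (8 of 8 detected), monocyte markers 0 to 11.5 and 0 to 0.218 (Ccr2 and Plac8 at 0 in every saline library), neuron markers 280 to 610 and 206 to 319 (8 of 8 detected), and erythrocyte markers 1.03 to 5.13 and 4.26 to 14.1 (Hbb-bt at 0 in every LPS library). Reads that aligned to several places overlapped between the injections, at 18.7% to 24.03% after LPS and 16.1% to 23.8% after saline. Endothelial and neutrophil markers did not overlap between the injections, and the others did. Their part in the result was not tested. The date-like codes in the names of the astrocyte libraries, whose meaning is not stated, are shared by no LPS and saline library, so such a code and LPS cannot be told apart. Of the 6 same-numbered pairs of KO and control astrocyte libraries, 5 share a code, and the genotype comparisons above do not use it.

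In microglia the ratios were higher and more scattered. They were 16.1, 14.8 and 21.5 in KO mice given LPS, 13.9, 21.4 and 16.6 in controls given LPS, 15.7, 18.3 and 27.4 in KO mice given saline, and 19.2, 12.7 and 21.1 in controls given saline. The injections overlap, with a log2 difference of -0.11 (exact permutation p = 0.575). Whether the LPS difference in astrocytes differs from that in microglia was not tested. KO and control ratios differed by 0.03 on the log2 scale in astrocytes (exact permutation p = 0.52) and by 0.11 in microglia (exact permutation p = 0.585).

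**Figure D3:**
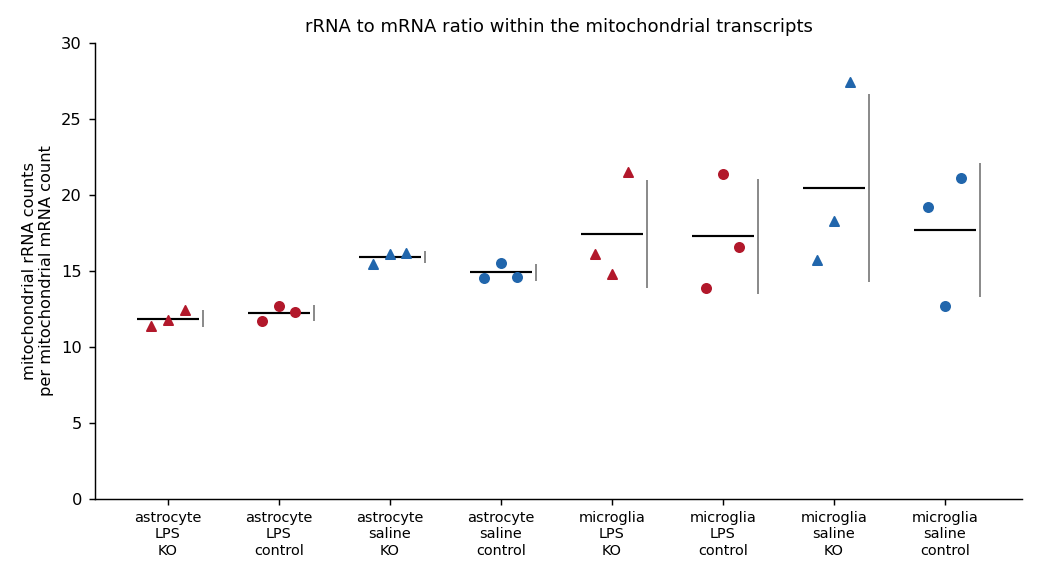
Mitochondrial rRNA counts per mitochondrial mRNA count, with 1 symbol per library, triangles for KO and circles for control, red for LPS and blue for saline, black lines for group means and grey lines for 1 SD either side (n = 3). Astrocyte libraries after LPS lie between 11.3 and 12.7 and those after saline between 14.5 and 16.2, while the microglia groups overlap.

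The pool of the 7 counted mRNAs was dominated by mt-Co1 throughout. Per kb, mt-Co1 made up 47.9% ± 3.70 of the 7 counted mRNAs in astrocytes and 50.7% ± 6.16 in microglia (SD, n = 12 each). mt-Nd1 made up 10.4% ± 1.24 in astrocytes and 19.0% ± 1.57 in microglia, with no overlap of libraries. mt-Nd6 made up 4.84% ± 0.593 in astrocytes and 1.42% ± 0.456 in microglia, also without overlap. mt-Cytb was at 16.9% ± 1.17 and 15.4% ± 3.12, and mt-Nd5 at 8.32% ± 0.979 and 5.36% ± 1.08, and both overlap between the cell types.

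After LPS the counted pool of astrocytes had a larger part of mt-Co1 and smaller parts of mt-Nd2 and mt-Nd5, none of which passed adjustment. mt-Nd2, a complex I subunit, made up 5.74%, 5.21% and 3.65% in KO astrocytes given LPS, 4.44%, 4.89% and 4.001% in controls given LPS, 6.26%, 6.18% and 6.14% in KO astrocytes given saline and 6.39%, 6.85% and 5.40% in controls given saline. Only 1 saline library, control 3, lies inside the LPS range. mt-Nd2 differed by -1.55 percentage points (exact permutation p = 0.005), mt-Nd5 by -1.53 (exact permutation p = 0.01) and mt-Co1 by 4.68 (exact permutation p = 0.03). These tests were added after the values had been seen, and adjusted over 28 tests their p were 0.14, 0.14 and 0.196, in that order, and a single smallest possible p of 0.005 among 28 tests cannot pass. Leaving out 1 library at a time gave mt-Co1 differences of 3.33 to 6.04, with exact permutation p from 0.005 to 0.08.

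In microglia mt-Co1 made up 54.6% ± 4.81 after LPS and 46.8% ± 4.90 after saline, a difference of 7.79 percentage points (exact permutation p = 0.035, adjusted p = 0.196). Leaving out 1 library at a time gave mt-Co1 differences of 5.92 to 9.35, with exact permutation p from 0.015 to 0.085. mt-Nd4 made up 4.64% ± 0.796 after LPS and 5.87% ± 0.914 after saline (exact permutation p = 0.035, adjusted p = 0.196). For KO against control, the lowest exact permutation p of any of the 7 mRNAs was 0.24, for mt-Cytb in microglia.

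**Figure D4:**
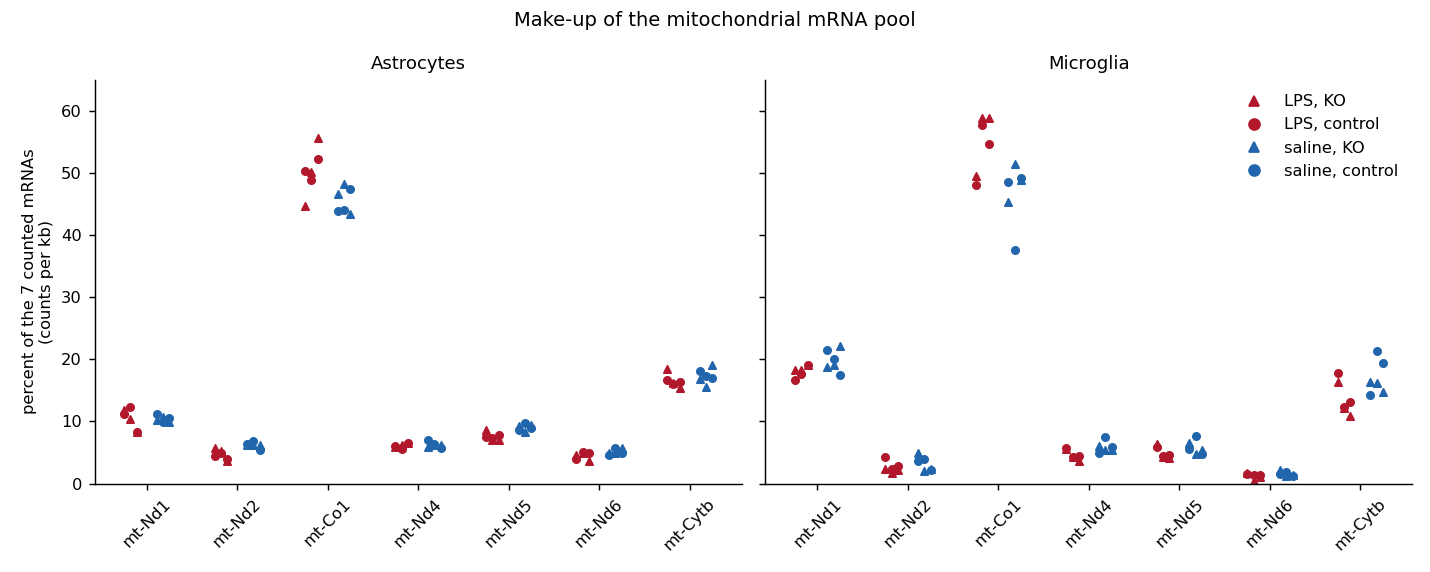
Percent of the 7 counted mitochondrial mRNAs, per kb of gene, taken by each mRNA in every library, astrocytes left and microglia right, LPS in red and saline in blue, triangles for KO and circles for control. mt-Co1 averages 50.3% after LPS and 45.6% after saline in astrocytes, and 54.6% after LPS and 46.8% after saline in microglia, with overlapping libraries.

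Tested gene by gene with edgeR's quasi-likelihood test, 10 of the 37 genes had enough counts (the 2 rRNAs, the 7 counted mRNAs and mt-Tp), and none of them was called in any of the 14 comparisons of genotype or injection, at an adjusted p under 0.05 or at an unadjusted p under 0.05. DESeq2 also called 0 of them. The count of 0 stands beside few calls among all genes tested. In KO against control, 0.0055% of genes were called in astrocytes given LPS, in astrocytes given saline and averaged over both, a single gene each time, Serpine2 itself. In microglia 0% were called in LPS, 0% in saline and 0.0045% averaged, again Serpine2 alone. For the interaction of genotype with injection 0% were called in either cell type.

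For LPS against saline, 1.56% of genes were called in KO astrocytes, 0.929% in control astrocytes and 6.9% averaged over both. In microglia 1.14% were called in KO mice, 0.576% in controls and 2.7% averaged. Fold changes of the 10 mitochondrial genes were small beside their intervals. Averaged over both genotypes, log2 fold changes in astrocytes ran from -0.23 for mt-Rnr2 (95% interval -0.71 to 0.26) to 0.31 for mt-Co1 (95% interval -0.13 to 0.74), with 6 of 10 above 0 and a median of 0.05, against 0.01 for all genes. In microglia they ran from -0.51 for mt-Nd2 (95% interval -1.49 to 0.48) to 0.98 for mt-Tp (95% interval -0.12 to 2.09, edgeR adjusted p = 0.453), with 2 of 10 above 0 and a median of -0.25, against -0.03 for all genes.

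For KO against control, averaged over both injections, log2 fold changes ran from -0.17 for mt-Nd1 (95% interval -0.70 to 0.36) to -0.04 for mt-Nd2 (95% interval -0.57 to 0.49) in astrocytes, with 0 of 10 above 0 and a median of -0.11, against 0.00 for all genes. These genes share precursors and libraries, so that their like signs are not separate observations, and leaving out LPS control 2 or LPS KO 3 turned mt-Rnr2 and mt-Co1 to 0.05 and 0.04 or to 0.00 and 0.00. In microglia they ran from -0.08 for mt-Nd2 (95% interval -1.07 to 0.90) to 0.20 for mt-Rnr1 (95% interval -0.55 to 0.94), with 9 of 10 above 0. Without KO library 1 of the LPS group, mt-Rnr2 was at -0.04 and mt-Co1 at -0.05 there. Intervals this wide leave changes of about the size of the bounds undetectable at this depth and number of libraries.

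**Figure D5:**
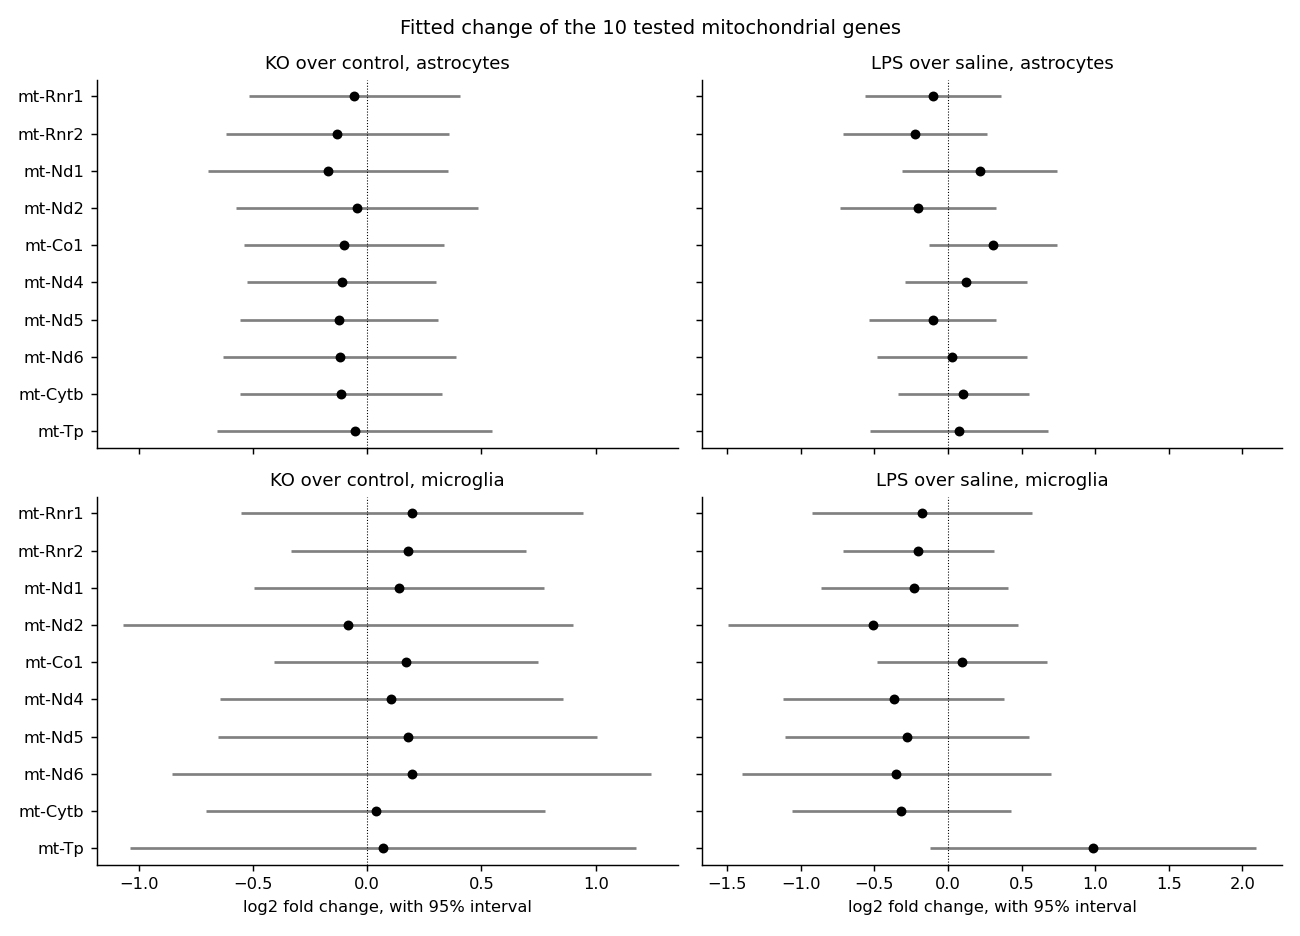
Log2 fold changes fitted by edgeR for the 10 tested mitochondrial genes, KO over control averaged over injections (left) and LPS over saline averaged over genotypes (right), astrocytes above and microglia below, with points for estimates and lines for 95% intervals. Every interval includes 0, and the estimate farthest from 0 is that of mt-Tp after LPS in microglia, 0.98 with an interval from -0.12 to 2.09.

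Across cell types the mitochondrial transcripts stood far higher in astrocyte than in microglia libraries. The rRNA share averaged 35.6% ± 4.61 in astrocytes and 3.44% ± 1.18 in microglia (SD, n = 12 each), and the mRNA share 2.62% ± 0.371 and 0.196% ± 0.0773. The tRNA share averaged 0.000482% ± 0.000102 and 0.000111% ± 7.78e-05. No library of 1 cell type entered the range of the other for rRNA, mRNA or tRNA, and each difference had an exact permutation p of 1.25e-05, the smallest the test allows (adjusted p = 8.33e-05). In bulk libraries, fewer cells of a type and less RNA per cell cannot be told apart, and cell type here goes together with brain region, dissociation, sequencing lane in the library names and gene annotation, which cannot be told apart from it.

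In edgeR's fit of all 24 libraries, 10 of 10 tested mitochondrial genes were called higher in astrocytes, where 79.6% of all 24607 genes were called in either direction, 32.5% higher and 47% lower in astrocytes. mt-Nd6 had the largest log2 fold change, 7.24 ± 0.38 (SE, edgeR adjusted p = 1.95e-14), and mt-Tp the smallest, 3.92 ± 0.31 (edgeR adjusted p = 2.14e-11). The rRNAs mt-Rnr1 and mt-Rnr2 were at 6.05 ± 0.28 and 4.71 ± 0.21, and mt-Co1 at 5.50 ± 0.22. The scale decides the size of these folds, because TMM factors were 0.484 to 0.700 in astrocytes and 1.65 to 1.82 in microglia. The fitted difference corresponds to 151-fold for mt-Nd6 and 45.2-fold for mt-Co1, while the ratios of mean CPM, without those factors, were 42.2 and 12.9. All genes tested had a median log2 fold change of -0.44 in the same fit, and of -0.73 with RLE factors, under which mt-Nd6 was at 6.96. Without microglia LPS control 1, the library at odds with its sex label, 10 of 10 were still called.

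The 2 rRNAs did not differ to the same degree. mt-Rnr2 counts per mt-Rnr1 count were 0.833 to 1.44 in astrocytes and 2.09 to 4.86 in microglia, averaging 1.14 ± 0.151 and 3.12 ± 0.758 (SD, n = 12 each). Both genes come from the same precursor, and mt-Rnr2 is the longer. The rRNA to mRNA ratio averaged 3.77 ± 0.196 on the log2 scale in astrocytes and 4.15 ± 0.318 in microglia, a difference of -0.39 (exact permutation p = 0.000825, adjusted p = 0.00413), with overlapping libraries. That direction rests on mt-Rnr2: in a variation added once the values were known, with mt-Rnr1 alone as the rRNA, astrocytes were higher by 0.54 (exact permutation p = 1.25e-05).

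Nuclear genes for the same respiratory complexes were also mostly higher in astrocytes in edgeR's fit. Their summed CPM without TMM factors were 2593 to 5523 in astrocytes and 1618 to 2665 in microglia, which overlap. The total behind these sums leaves out mitochondrial rRNA and CT010467.1. In astrocytes these took 29.9% to 41.7% and 11.9% to 23.998% of gene counts. In microglia mitochondrial rRNA took 2.33% to 5.65%, and CT010467.1 has no row. Sums over all gene counts were not compared, so the direction of the sums holds for this scale only. Of 32 nuclear subunits of oxidative phosphorylation, 28 were called higher and 1 lower by edgeR, where 32.5% of all genes were called higher and 47% lower, with a median log2 fold change of 1.55 against -0.44 for all genes. None of the 32 was called for LPS or for KO, with medians of 0.18 in astrocytes and 0.20 in microglia for LPS and of 0.15 and 0.07 for KO, averaged over the other factor, where 6.9% and 2.7% of all genes were called for LPS and 0.0055% and 0.0045% for KO.

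In edgeR's fit, with TMM factors, nuclear genes that copy, transcribe and process mitochondrial DNA and RNA showed no such common direction between cell types. Their direction depends on the scale. Summed CPM without TMM factors, on the total without mitochondrial rRNA and CT010467.1, were lower in every astrocyte library than in any microglia library. They were 96.2 to 141 against 208 to 252 for DNA maintenance and 90.5 to 132 against 175 to 216 for transcription. For RNA processing and stability they were 561 to 756 against 874 to 1173. Of 9 genes of mitochondrial DNA maintenance, 3 were called higher and 4 lower in astrocytes, in a comparison in which 79.6% of all genes were called. Of 10 genes of mitochondrial transcription, 2 were called higher and 2 lower, and of 27 tested genes of RNA processing and stability, 8 and 7. Tfam, which packages mitochondrial DNA and starts its transcription, was higher in astrocytes by 0.44 ± 0.15 in edgeR's fit (log2, SE, edgeR adjusted p = 0.00858). Polrmt, the mitochondrial RNA polymerase, was at -0.70 ± 0.18 and Lrpprc, which stabilises mitochondrial mRNAs, was at -1.11 ± 0.12, both called lower by edgeR. Tfb2m, a transcription factor that melts the promoter, was at 0.01 ± 0.17 (edgeR adjusted p = 0.943), and Slirp, the partner of Lrpprc, was not tested, with 9 counts in 12 astrocyte and 61 in 12 microglia libraries. The largest difference among the tested genes of these 3 lists was that of Hsd17b10, at 2.82 ± 0.16.

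After LPS 1 gene of these lists was called in each cell type when genotypes were averaged, of 9, 10 and 27 tested in the 3 lists, where 6.9% of all genes were called in astrocytes and 2.7% in microglia. Hsd17b10, a subunit of the human mitochondrial RNase P that cuts tRNAs from the precursor, rose in astrocytes by 0.85 ± 0.20 (log2, SE, edgeR adjusted p = 0.0136). Dna2, a nuclease and helicase found in nucleus and mitochondria, rose in microglia by 0.83 ± 0.16 (edgeR adjusted p = 0.00794). Tfam, Polrmt, Tfb2m and Lrpprc had log2 fold changes of 0.00, 0.04, -0.07 and -0.17 in astrocytes and of -0.14, 0.10, 0.02 and -0.22 in microglia, none of them called. For KO against control, averaged over injections, 0 genes of the lists were called in either cell type, where 0.0055% of all genes were called in astrocytes and 0.0045% in microglia.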

How the data were processed

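The deposited values are raw read counts per Ensembl gene, 1 table per library, not normalized by the authors. STAR 2.6.0c and HTSeq are the tools, and GRCm38 and GRCm39 the builds, per the submitters' processing notes, which do not say which build served which table. Per the labels' protocols, libraries were made with Ovation V2 and NEBNext Ultra kits. Strand, counting mode and read length are not given in the sources used here. Rows that name no gene (reads outside genes, ambiguous or with several alignments) stayed out of library sizes, and their shares are given with the results. No 2 tables were identical.

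Shares are percents of gene counts, compared by exact two-sided permutation of libraries within strata (400 arrangements, or 160000 between cell types) with Benjamini-Hochberg adjustment over 20 tests. Genes were fitted with edgeR 4.0.16 in R 4.3.3, with TMM, filterByExpr (minimum count 10, total 15), a robust quasi-likelihood model of 1 mean per group on 12 libraries of a cell type (24 for both) and adjustment over all genes. The edgeR fit, for LPS within a cell type, and the permutation test were checked on simulated data, and the other steps were not. DESeq2 1.42.0, RLE factors, other filters, sex, a replicate block, fewer groups, removal of rRNA genes and each library left out were alternatives. Nuclear copies were found as exact matches to GENCODE M21 transcripts and with BLAST 2.17.0.

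All members may be named, of the tRNAs the 3 of highest count, and of the nuclear lists called genes plus Tfam, Polrmt, Tfb2m, Lrpprc and Slirp. The rule for members uses symbols alone, but this set of genes and the lists were chosen for study with earlier results of these data known. As a check of pairing, deviations of same-numbered KO and control libraries from their group means were correlated. The correlations were 0.30, 0.16 and 0.35 in astrocytes given LPS and -0.10 to 0.01 in astrocytes given saline. In microglia they were -0.17 to 0.32 after LPS and -0.11 to 0.44 after saline. No main test paired the libraries, in astrocytes given LPS or elsewhere, and a replicate block was used only as an alternative. Limits from counts cover counting error only, since PCR copies cannot be recognised in reads that carry no molecular identifiers. Intervals of fold changes come from edgeR's fit and include the spread between libraries.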

Additional observations from a re-analysis of the deposited data

How the results depend on the processing

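Of 670 recomputed values of 37 main results, 624 were labelled unchanged. For shares and ratios this means the same direction and side of the threshold. For counts of called genes it means an equal or similar count, most often 0 against 0. For the part of mt-Co1 it means a move smaller than its SD. Under the replicate block the 14 counts of called mitochondrial genes stayed at 0, and no share or ratio crossed that unadjusted p for KO against control. Shares and ratios for LPS and between cell types, among them the LPS ratio in astrocytes, were not recomputed under a block. Without a filter on low counts, 1 mitochondrial gene instead of 0 was called for LPS in astrocytes, mt-Nd3, listed at 0 in all LPS libraries and at 6 to 10 counts in 4 of 6 saline libraries. The log2 ratio of rRNA to mRNA moved to -0.18 for LPS in astrocytes without mt-Co1 and mt-Nd4, to 0.54 for astrocytes against microglia with mt-Rnr1 alone, to -0.0223 for KO in astrocytes with mt-Rnr2 alone, and for LPS in microglia to 0.15 without mt-Co1, 0.14 without mt-Co1 and mt-Nd4 and 0.0172 with mt-Rnr1 alone. The cause was not tested.

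The share of mt-Co1 among the counted mRNAs was 54.8% in astrocytes and 58.0% in microglia without division by length, and 60.4% and 63.5% per unshared length. The mRNA share for LPS in microglia was -0.000507 points without mitochondrial rRNA and CT010467.1 in the total, and the tRNA share was -7.11e-07 points for KO in microglia over all reads and 1.38 on the log2 scale for LPS in microglia (exact permutation p = 0.065).

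Leaving out 1 library at a time gave, in percentage points, these ranges for results that changed direction or crossed an unadjusted p of 0.05. The rRNA share ran from -3.07 to 0.112 for KO in astrocytes and from -0.766 to 0.150 for LPS in microglia. The mRNA share ran from 0.242 to 0.467 for LPS in astrocytes, from -0.0121 to 0.0414 for KO in microglia, and from -0.0338 to 0.0316 for LPS in microglia. For LPS in astrocytes the unadjusted p was below 0.05 only without LPS control 3 (exact permutation p = 0.035), and it was not adjusted. The tRNA share ran from -5.16e-05 to 3.33e-05 for KO in astrocytes, from -2.28e-05 to 4.09e-05 for KO in microglia and from 5.46e-05 to 0.000118 for LPS in microglia. The part of mt-Co1 among the counted mRNAs for LPS ran from 3.33 to 6.04 in astrocytes, with an exact permutation p of 0.05 or more without saline KO 3, LPS KO 2 or LPS KO 3, and from 5.92 to 9.35 in microglia, where leaving out 6 of 12 libraries gave p of 0.055 to 0.085. The log2 ratio in microglia ran from -0.00521 to 0.20 for KO and from -0.23 to 0.00139 for LPS. The log2 fold change of mt-Co1 for LPS in microglia ran from -0.12 to 0.38. For KO, mt-Rnr2 ran from -0.34 to 0.0454 and mt-Co1 from -0.30 to 0.0442 in astrocytes, and mt-Rnr2 from -0.0358 to 0.35 and mt-Co1 from -0.0839 to 0.38 in microglia.

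Counts of the tRNAs other than mt-Tp and of the 6 uncounted mRNAs were too low to pass the main filter for a test gene by gene. Whether depth sets this was not tested.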

Other observations

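The mRNA mt-Nd3, singled out after its values were seen, had 0 counts in all 6 astrocyte libraries given LPS, against 10, 0 and 6 counts in KO astrocytes given saline and 9, 0 and 10 in controls given saline. Its nuclear copy Gm28438 differs from it by 1 mismatch over 99.1% of its length, so few reads of this gene can be placed.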
